A study of Rattus norvegicus with 12 samples.

Results

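Oxytocin (Oxt), vasopressin (Avp), proopiomelanocortin (Pomc), agouti-related peptide (Agrp), melanin-concentrating hormone (Pmch), orexin (Hcrt), growth hormone (Gh1) and prolactin (Prl) are the hormone genes by which a rat hypothalamus and pituitary are recognised. They were taken by name from the table of read counts, 8 of its 17337 rows, and were chosen because their values in single libraries of these data had already been seen. The data were RNA sequencing libraries of brain tissue, which the series calls middle brain, of male Sprague-Dawley rats of postnatal day 60, in 4 groups of 3 libraries. The AAV-VEGFC group had bile duct ligation (BDL, a surgical block of bile outflow that leads to cirrhosis) for 4 weeks and an adeno-associated virus (AAV) carrying vascular endothelial growth factor C. The AAV-GFP group had the same ligation and a virus carrying green fluorescent protein. The BDL group had the ligation for 4 weeks with no virus, and the sham group had sham surgery. Both viruses were given in 20 µl into the cisterna magna, the fluid space behind the cerebellum. The promoter of the vectors is not given in the sources used here, and the labels give no date or batch of dissection, extraction or sequencing. Nothing ties a library to an animal beyond the series' count of rats per group, so p-values measure the spread between these libraries.

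These genes are made by small groups of cells. Oxt and Avp are made by magnocellular neurons of the paraventricular and supraoptic nuclei, which release the peptides from the posterior pituitary. Pomc and Agrp mark opposing neurons of the arcuate nucleus, one lowering and the other raising food intake, while Pmch and Hcrt mark separate neurons of the lateral hypothalamus. Gh1 and Prl are made by somatotrophs and lactotrophs of the anterior pituitary, a gland below the brain, where Pomc is made as well, by corticotrophs.

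The 12 libraries held between 40296297 and 51669067 counts, and the scaling factors (TMM) lay between 0.972 and 1.03. Levels are CPM, that is counts scaled to library size with these factors. A library with 0 reads of a gene allows a level of up to 0.0586 to 0.0757 CPM, from 3 counts of its total, and these limits and all intervals below cover counting error only. All libraries held much RNA of forebrain neurons. Slc17a7, which loads glutamate into the vesicles of cortical neurons, had 1249 to 2028 CPM, whereas Th, which catalyses the first step of dopamine synthesis, had 0.652 to 1.7 CPM. Markers of midbrain monoamine neurons summed to 6.1 to 11.1 CPM over 8 genes. The series' term is middle brain, and which region was dissected was not tested. No 2 libraries of a group agreed within sampling noise, with chi-square per degree of freedom between 11.6 and 227.

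Oxt stood at 2.24, 0 and 0.198 CPM in AAV-VEGFC libraries 1 to 3, and at 47.8, 0 and 0.119 CPM in AAV-GFP libraries 1 to 3. It stood at 0.065, 0 and 0.462 CPM in the BDL libraries and at 0, 0.571 and 1.48 CPM in the sham libraries. The AAV-GFP 1 value rested on 2290 reads of the 2510 Oxt reads in the series, with a 95% exact binomial interval of 45.8 to 49.8 CPM, and was 21.3-fold above the next library, AAV-VEGFC 1. Each of the 4 groups held 1 library with 0 Oxt reads, and all groups overlapped. In these bulk samples, fewer cells of a type and less RNA per cell cannot be told apart.

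Avp, the gene of the antidiuretic hormone, stood at 4.69, 0 and 0.242 CPM in the AAV-VEGFC libraries and at 32.8, 0.133 and 0 CPM in the AAV-GFP libraries. The BDL libraries held 0.065, 0.106 and 0.603 CPM, and the sham libraries 0, 0.265 and 1.22 CPM. AAV-GFP 1 was again the highest, on 1574 of 1879 reads (31.2 to 34.5 CPM), 7-fold above AAV-VEGFC 1. Sham 3 came next for both genes, followed by sham 2 and BDL 3, whose order differed between the genes. The group means of Oxt and of Avp stood in the order AAV-GFP, AAV-VEGFC, sham and BDL from high to low, and no neighbouring means differed by more than 1 SD of the wider group.

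Across the 12 libraries the log2 CPM of Oxt and Avp had a Pearson correlation of 0.93 and a Spearman correlation of 0.84, and a Pearson correlation of 0.86 without AAV-GFP 1. The points share library and depth, and the low ones rest on few reads, so this is a description. The share of Oxt in the reads of the pair was 59.3% in AAV-GFP 1 (57.7 to 60.8%), 32.4% in AAV-VEGFC 1 (26.9 to 38.2%), 54.9% in sham 3 (45.2 to 64.2%) and 68.3% in sham 2 (51.9 to 81.9%). The interval of AAV-VEGFC 1 lay below those of AAV-GFP 1, sham 2 and sham 3. It overlapped those of AAV-VEGFC 3, at 45% (23.1 to 68.5%) on 20 reads, and BDL 3, at 43.4% (29.8 to 57.7%) on 53 reads. In 3 libraries reads of just 1 of the 2 genes were found, at 5 or 6 reads. The genes lie next to each other, between Mrps26 and Ubox5, in the RefSeq annotation of GRCr8, and share a near-identical stretch, so a part of their reads may be assigned to either.

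The promoters of the members that set single libraries apart are shown, Oxt and Avp for AAV-GFP 1 and Prl for AAV-VEGFC 3. They are the 250 bases before the gene's start, 5′ to 3′ in the direction of the gene, from RefSeq on GRCr8, a build other than the rn6 of the counts. Promoters were found for 6 members (Oxt, Avp, Pomc, Agrp, Hcrt and Prl). Oxt lies at chr3:138235504-138235753 on the plus strand, Avp at chr3:138248523-138248772 on the minus strand and Prl at chr17:38298218-38298467 on the minus strand. Capitals mark, on either strand, GGTCA in Oxt, the nuclear receptor half-site, CACGTG in Avp, the E-box of clock factors, and ATGNATA in Prl, the core of sites of the pituitary factor Pou1f1.
Oxt: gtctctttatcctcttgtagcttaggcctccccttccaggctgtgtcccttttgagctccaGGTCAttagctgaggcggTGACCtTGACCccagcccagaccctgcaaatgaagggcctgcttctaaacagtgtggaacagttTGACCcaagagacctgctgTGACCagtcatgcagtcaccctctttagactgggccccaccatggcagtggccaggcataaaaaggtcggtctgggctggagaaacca
Avp: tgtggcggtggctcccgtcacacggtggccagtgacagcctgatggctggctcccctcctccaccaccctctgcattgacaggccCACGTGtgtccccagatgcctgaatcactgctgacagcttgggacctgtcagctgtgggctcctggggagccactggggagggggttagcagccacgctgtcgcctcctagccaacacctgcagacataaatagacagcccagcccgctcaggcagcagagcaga
Prl: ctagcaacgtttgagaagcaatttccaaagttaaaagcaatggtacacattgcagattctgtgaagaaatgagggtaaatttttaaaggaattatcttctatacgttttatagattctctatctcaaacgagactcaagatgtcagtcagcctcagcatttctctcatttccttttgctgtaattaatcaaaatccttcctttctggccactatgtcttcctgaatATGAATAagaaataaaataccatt
Each of the 3 motifs was searched on both strands in the promoters of all 6 members. GGTCA occurred 5 times in Oxt and 2 times in Pomc, and in 35.4% of all 33469 promoters of this length. CACGTG occurred in Avp alone of the 6, and in 5.59% of all promoters, and ATGNATA in Prl alone of the 6, and in 8.73% of all promoters. None of the 3 printed sequences held a match to another of the motifs. A match is a description and not a binding site.

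**Figure D1:**
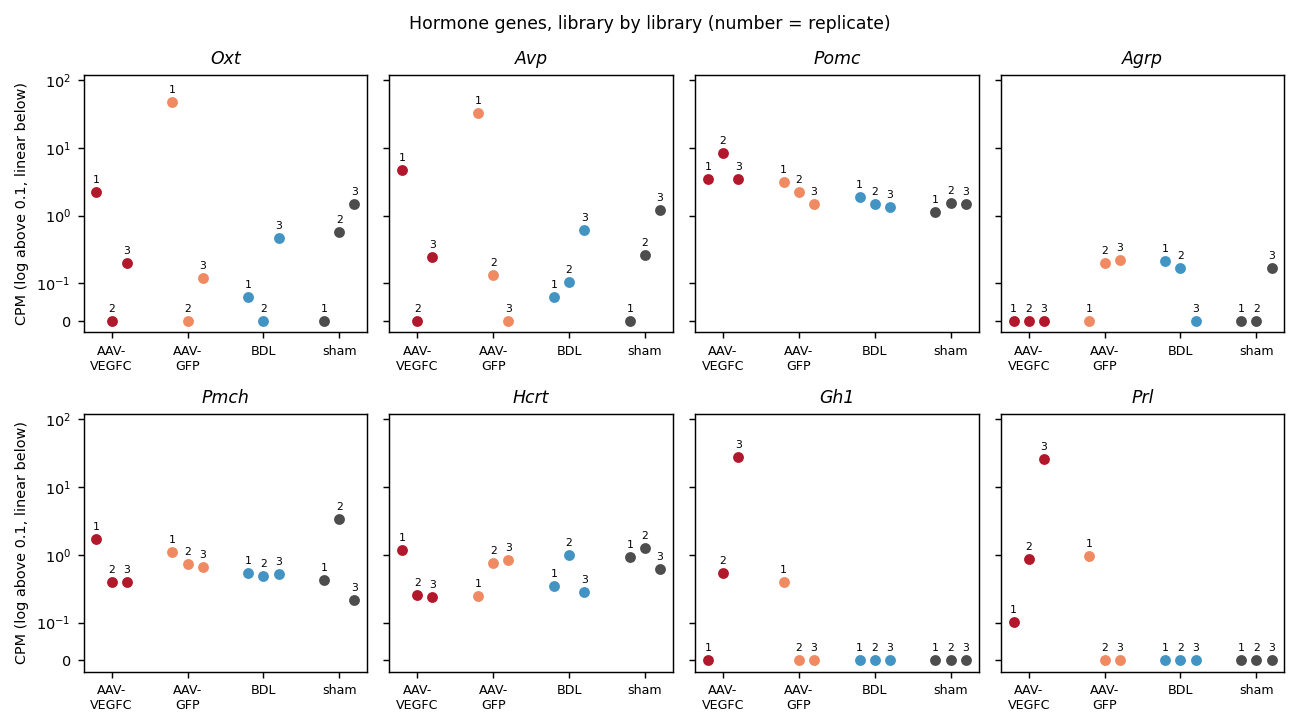
Level of each hormone gene (CPM, on a scale that is logarithmic above 0.1 CPM and linear below it) in each library of the AAV-VEGFC, AAV-GFP, BDL and sham groups, with the replicate number beside each point. AAV-GFP 1 stands highest for Oxt (47.8 CPM) and Avp (32.8 CPM), AAV-VEGFC 3 for Gh1 (27.8 CPM) and Prl (25.7 CPM), while Pomc is spread over all 12 libraries.

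**Figure D2:**
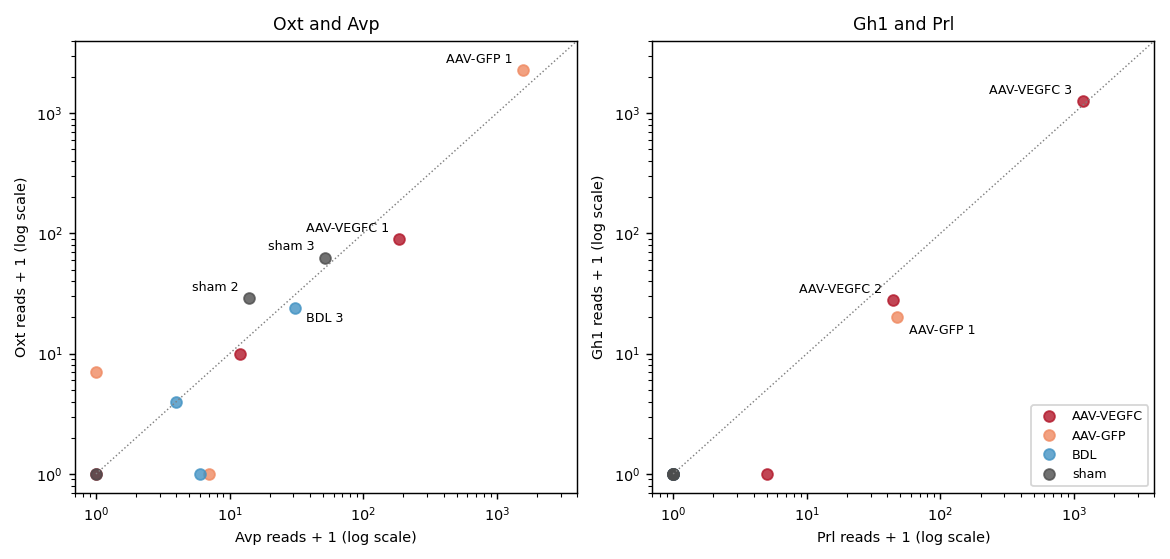
Reads of Oxt against Avp and of Gh1 against Prl in the 12 libraries, each as reads + 1 on a log scale, coloured by group, with equal reads on the dotted line and the libraries with over 19 reads of either gene named. Oxt and Avp were high together in AAV-GFP 1 (2290 and 1574 reads), and Gh1 and Prl in AAV-VEGFC 3 (1267 and 1169 reads).

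Gh1, growth hormone, was found in only 3 libraries. It stood at 0, 0.539 and 27.8 CPM in the AAV-VEGFC libraries and at 0.396, 0 and 0 CPM in the AAV-GFP libraries, and had 0 reads in all 3 BDL and all 3 sham libraries. AAV-VEGFC 3 held 1267 of the 1313 reads in the series (26.3 to 29.4 CPM) and was 51.7-fold above AAV-VEGFC 2. Prl, prolactin, a hormone of the same family, stood at 0.101, 0.858 and 25.7 CPM in the AAV-VEGFC libraries and at 0.96, 0 and 0 CPM in the AAV-GFP libraries, again with 0 reads in all BDL and sham libraries. Its AAV-VEGFC 3 level rested on 1169 of 1262 reads (24.2 to 27.2 CPM) and was 26.8-fold above AAV-GFP 1. The 3 libraries with over 10 reads of either gene, AAV-VEGFC 3, AAV-VEGFC 2 and AAV-GFP 1, were the same for both.

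The log2 CPM of Gh1 and Prl had a Pearson correlation of 0.98 across the 12 libraries (Spearman 0.84), and of 0.95 without AAV-VEGFC 3, a description since most points are at 0. Gh1 made up 52.0% of the reads of the pair in AAV-VEGFC 3 (50.0 to 54.0%), 38.6% in AAV-VEGFC 2 (27.2 to 51.0%) and 29.2% in AAV-GFP 1 (18.6 to 41.8%). The interval in AAV-GFP 1 lay below that in AAV-VEGFC 3. Oxt and Gh1 had a Pearson correlation of 0.11. AAV-GFP 1, with 2290 Oxt reads, held 19 Gh1 reads, and AAV-VEGFC 3, with 1267 Gh1 reads, held 9 Oxt reads.

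Pomc, the precursor of melanocortins and beta-endorphin, was found in every library. It stood at 3.46, 8.44 and 3.45 CPM in the AAV-VEGFC libraries and at 3.09, 2.19 and 1.46 CPM in the AAV-GFP libraries. In the BDL libraries it stood at 1.86, 1.49 and 1.33 CPM, and in the sham libraries at 1.13, 1.53 and 1.46 CPM. The lowest AAV-VEGFC library (3.45 CPM) lay just above the highest AAV-GFP library (3.09 CPM), while the other groups overlapped their neighbours. AAV-VEGFC 2, on 423 reads (7.65 to 9.28 CPM), was 2.44-fold above AAV-VEGFC 1. The group means were 5.12 ± 2.88, 2.25 ± 0.813, 1.56 ± 0.276 and 1.37 ± 0.211 CPM in AAV-VEGFC, AAV-GFP, BDL and sham (SD, n = 3 each), in that order from high to low, and neighbouring means lay within 1 SD of the wider group.

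Agrp, the melanocortin antagonist of the arcuate nucleus, was near the limit of detection, with 45 reads in all. It had 0 reads in all 3 AAV-VEGFC libraries, against 0, 9 and 11 reads in the AAV-GFP libraries. The BDL libraries held 10, 8 and 0 reads and the sham libraries 0, 0 and 7 reads. Agrp did not pass the filter on low counts and was not tested, whereas the other 7 members did. Pomc, Pmch and Agrp overlap other genes in the GRCr8 annotation (Efr3b, Parpbp, and Ripor1 with LOC120098617), and without a stated strand such reads cannot be told apart.

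Pmch, the melanin-concentrating hormone precursor, stood at 1.69, 0.399 and 0.395 CPM in the AAV-VEGFC libraries and at 1.11, 0.73 and 0.653 CPM in the AAV-GFP libraries. The BDL libraries held 0.542, 0.489 and 0.522 CPM and the sham libraries 0.43, 3.42 and 0.215 CPM. Sham 2 was the highest, on 168 reads. Markers of the choroid plexus, the tissue that makes cerebrospinal fluid, also summed highest there, to 609 CPM over 12 genes against 178 to 275 CPM in the other libraries. In sham 2, 10 of the 12 were at their highest. All 12 had reads in at least 1 library. Their part in the Pmch level was not tested.

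Hcrt, the orexin precursor, was the most even of the 5 members with a median above 0, with its highest level 1.81-fold over its median. It stood at 1.19, 0.259 and 0.242 CPM in the AAV-VEGFC libraries and at 0.25, 0.752 and 0.831 CPM in the AAV-GFP libraries. In the BDL libraries it stood at 0.347, 0.999 and 0.281 CPM, and in the sham libraries at 0.919, 1.24 and 0.621 CPM. Its highest library, sham 2, was 1.05-fold above the next, AAV-VEGFC 1, and all groups overlapped. Hcrt was low (0.25 CPM) in AAV-GFP 1 and low (0.242 CPM) in AAV-VEGFC 3.

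Some other genes of the hypothalamus were also highest in AAV-GFP 1, while others were low there. The hypothalamic marker list held 39 genes, of which 34 were in the files, and summed to 30.0 to 45.3 CPM in AAV-VEGFC, 29.1 to 69.1 CPM in AAV-GFP, 37.5 to 40.7 CPM in BDL and 33.4 to 39.1 CPM in sham libraries. The highest sum was that of AAV-GFP 1. Its largest parts were Tac3 (13.5 CPM, median elsewhere 8.71 CPM) and Gpr101 (12.8 CPM, median elsewhere 3.34 CPM). In AAV-GFP 1, 12 of the 34 genes had their highest level. Sim1, the transcription factor that specifies paraventricular neurons, had 4.8 CPM there, 0 CPM in AAV-GFP 2 and 3, and up to 1.79 CPM elsewhere, in sham 3. Otp, a partner of Sim1 in the same neurons, had 1.52 CPM there and at most 0.53 CPM in the other libraries. Fezf1, of the ventromedial hypothalamus, had 1.42 CPM there and at most 0.311 CPM elsewhere. Other listed genes went the other way. Crh stood in AAV-GFP 1 at 2.94 CPM against a median elsewhere of 4.61 CPM, and Hdc at 0 against 0.607 CPM. Ghsr and Lhx9 stood lower in AAV-GFP 1 as well, at 0.167 and 1.06 CPM against medians of 0.932 and 1.79 CPM.

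Sim1 was not limited to that library, with 1.63 CPM in BDL 3 and 0.978 CPM in BDL 2, where Oxt stood at 0.462 and 0 CPM. Trh, thyrotropin-releasing hormone, had 4.92 CPM in AAV-VEGFC 1 and 4.51 CPM in AAV-GFP 1, the 2 libraries that led for Oxt and Avp. Of the 34 genes, 7 had 0 reads in all libraries, namely Npvf, Qrfp, Galp, Rax, Hmx2, Hmx3 and Bsx. Of the 19 tested hypothalamic markers, edgeR called 0 in AAV-VEGFC against AAV-GFP, AAV-GFP against BDL and BDL against sham (2, 3 and 0 at an unadjusted p under 0.05, beside 4.37%, 20.7% and 5.9% of all genes), and DESeq2 called 0, 1 and 0. The 3 of 19 in AAV-GFP against BDL are a smaller share than that of all genes. DESeq2 called 1485 of the 12850 genes in that comparison. Their median log2 difference was -0.18, 0.23 and 0.12. Without AAV-GFP 1, 2 were called lower in AAV-GFP than in BDL. Fits with 1 library left out called 386 to 2945 of all genes in that comparison, so nothing is read from this count. The part of other hypothalamic cells in the Oxt and Avp levels was not tested.

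The sum of the pituitary markers was highest in AAV-GFP 1 (93.5 CPM) and AAV-VEGFC 3 (92.9 CPM), and most of it came from 2 genes that the brain also expresses, Drd2 and Crhr1. The list held 22 genes, 21 of them in the files, and summed to 45.9 to 92.9 CPM in AAV-VEGFC, 31.1 to 93.5 CPM in AAV-GFP, 45.5 to 59.7 CPM in BDL and 48.4 to 73.7 CPM in sham libraries. Drd2, the dopamine receptor of striatal neurons and lactotrophs, had 54.6 CPM in AAV-VEGFC 3 and 45.8 CPM in AAV-GFP 1, and Crhr1, the corticotropin-releasing hormone receptor, had 24.9 CPM in AAV-VEGFC 3 and 22.9 CPM in AAV-GFP 1. In AAV-VEGFC 3, 7 of the 21 genes were at their highest. Cga, the shared alpha subunit of the glycoprotein hormones, had 33 reads there (0.725 CPM) and at most 0.0626 CPM elsewhere. Tshb, the thyrotropin beta subunit, had 20 reads there (0.439 CPM) and 0 in the other 11 libraries. Pou1f1, the transcription factor of somatotrophs and lactotrophs, had 13 reads there (0.286 CPM) and at most 0.102 CPM elsewhere. Other listed genes went the other way. Gnrhr, Tbx19 and Neurod4 stood in AAV-VEGFC 3 below their medians over the other libraries. Their highest levels were in AAV-GFP 2 (1.9 CPM), BDL 1 (1.17 CPM) and sham 3 (1.22 CPM). Fshb, Hesx1 and Pax7 were among the markers with 0 reads in all libraries. Of the 9 tested pituitary markers, edgeR and DESeq2 called 0 in each comparison. Over all genes edgeR called 0.00778%, 6.19% and 0.109% in the same order. At an unadjusted p under 0.05 there were 0 of the 9, beside 4.37%, 20.7% and 5.9% of all genes. A list of 9 genes is small beside these shares, so nothing is read from these counts. The median log2 difference of the 9 was 0.07, -0.03 and -0.05 in the same order. Without AAV-GFP 1, 1 was called lower in AAV-GFP than in BDL, where fits with 1 library left out called 386 to 2945 of all genes. The part of pituitary cells in the Gh1 and Prl levels was not tested.

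**Figure D3:**
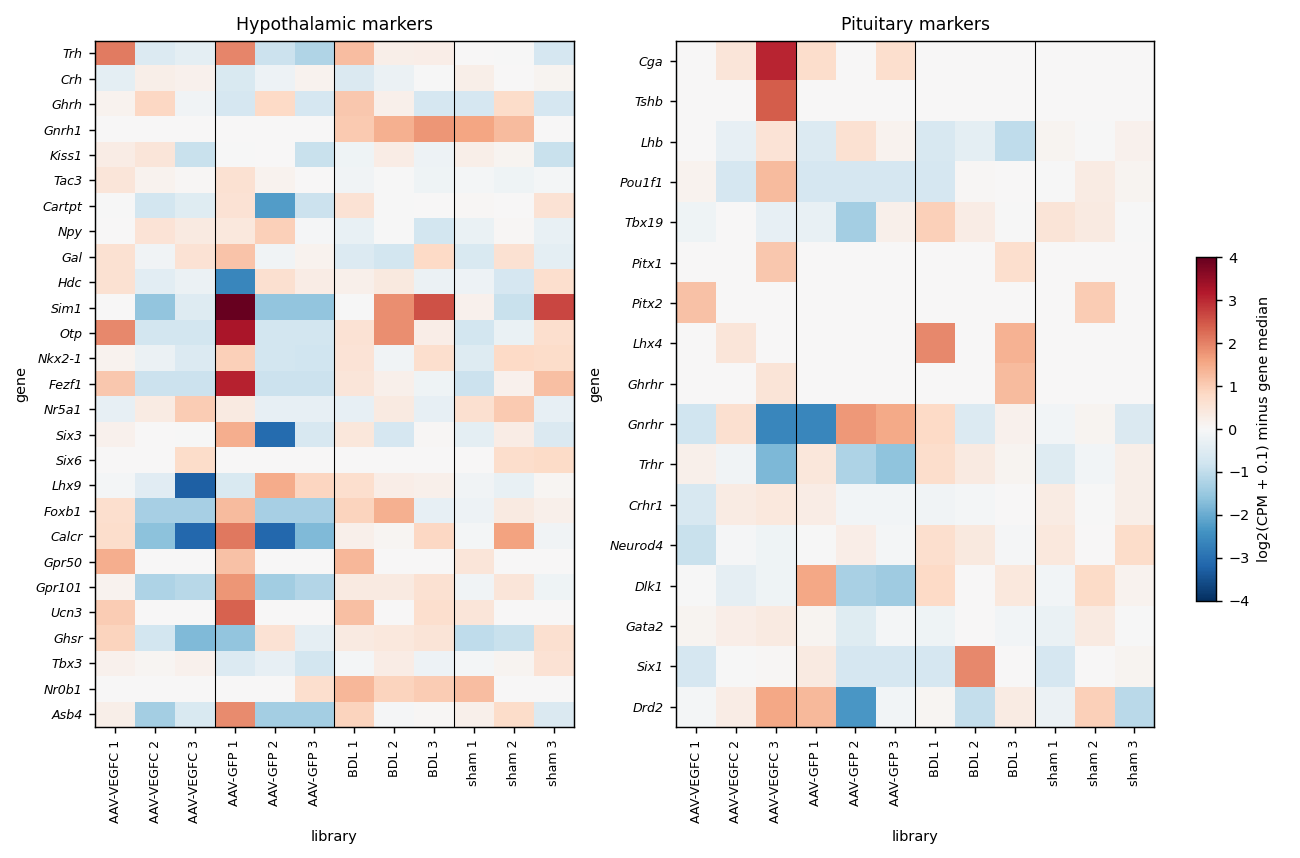
Hypothalamic and pituitary marker genes with reads in any library (rows) in the 12 libraries (columns, by group), as log2(CPM + 0.1) minus the gene's median over libraries, red above and blue below the median. Sim1, Otp and Fezf1 stand out in AAV-GFP 1 and Cga, Tshb and Pou1f1 in AAV-VEGFC 3. Other markers are below their median there, such as Hdc in AAV-GFP 1 and Gnrhr in AAV-VEGFC 3.

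The comparisons of the groups were fitted for all 12850 genes that passed the filter, and the members' differences are given as a description because they were chosen on these values. No member passed an adjusted p of 0.05 (edgeR quasi-likelihood test, Benjamini-Hochberg over all genes) in any of the 3 comparisons, in which 0.00778% of tested genes were called for AAV-VEGFC against AAV-GFP, 6.19% for AAV-GFP against BDL and 0.109% for BDL against sham. At an unadjusted p under 0.05 there were 2, 2 and 0 of the 7 tested members in the same order, beside 4.37%, 20.7% and 5.9% of all genes, namely Pomc and Gh1 in the first and Oxt and Avp in the second. Gh1 and Prl passed the filter only through the virus groups in which they had reads, and with 0 reads in all BDL and sham libraries they could not differ in the third, so nothing is read from these counts. DESeq2 called 0 members and gave no adjusted p for 3 of the 7 in each comparison.

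For AAV-VEGFC against AAV-GFP, the fitted log2 difference of Pomc was 1.19 ± 0.37 (SE, n = 3 each), and its groups did not overlap, as for 3.29% of all genes in that direction. Without AAV-VEGFC 2 it was 0.62. Gh1 averaged 9.46 ± 15.9 CPM in AAV-VEGFC and 0.132 ± 0.229 CPM in AAV-GFP (6.13 ± 2.37, and 1.05 without AAV-VEGFC 3), and Prl averaged 8.88 ± 14.6 CPM in AAV-VEGFC and 0.32 ± 0.554 CPM in AAV-GFP (4.78 ± 2.11, and 0.60 without AAV-VEGFC 3). The summed reads of the group were 72.3-fold higher for Gh1 and 28.1-fold higher for Prl, both from 1 library. Oxt averaged 0.814 ± 1.24 CPM in AAV-VEGFC and 16.0 ± 27.5 CPM in AAV-GFP (-4.34 ± 2.13). Without AAV-GFP 1 the sign turned, to 3.63, and without AAV-VEGFC 1 the difference was -7.35. Avp averaged 1.64 ± 2.64 CPM in AAV-VEGFC and 10.99 ± 18.9 CPM in AAV-GFP (-2.76 ± 2.01, with 4.60 without AAV-GFP 1 and -6.53 without AAV-VEGFC 1). Agrp, at 0 reads in AAV-VEGFC against 20 in AAV-GFP, was at least 6.28-fold lower against a floor of 3 counts over the group.

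For AAV-GFP against BDL, Oxt averaged 16.0 ± 27.5 CPM in AAV-GFP and 0.176 ± 0.25 CPM in BDL (6.45 ± 2.47), and Avp 10.99 ± 18.9 CPM in AAV-GFP and 0.258 ± 0.299 CPM in BDL (5.38 ± 2.36). Without AAV-GFP 1 the differences were -1.50 and -1.99. Gh1, at 19 reads in AAV-GFP and 0 in BDL, was at least 6.3-fold higher and Prl, at 46 reads in AAV-GFP and 0 in BDL, at least 15.3-fold higher, with all of these reads in AAV-GFP 1. Pmch averaged 0.829 ± 0.242 CPM in AAV-GFP and 0.518 ± 0.0268 CPM in BDL (0.68 ± 0.89), and all AAV-GFP values lay above all BDL values, as for 18.2% of all genes. Pomc differed by 0.53 ± 0.38, and by 0.22 without AAV-GFP 1. Hcrt differed by 0.17 ± 0.71, by 0.95 without BDL 2 and, with its sign turned, by -0.14 without BDL 3.

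For BDL against sham, no member's mean differed by more than 1 SD of the wider group. Oxt averaged 0.176 ± 0.25 CPM in BDL and 0.684 ± 0.747 CPM in sham (-1.88 ± 2.49, with -4.26 without BDL 3 and -0.65 without sham 3), and Avp 0.258 ± 0.299 CPM in BDL and 0.495 ± 0.641 CPM in sham (-0.86 ± 2.40, and 0.99 without sham 3). Pmch averaged 0.518 ± 0.0268 CPM in BDL and 1.36 ± 1.79 CPM in sham (-1.39 ± 0.88), and the difference was 0.66 without sham 2. Hcrt averaged 0.542 ± 0.397 CPM in BDL and 0.928 ± 0.311 CPM in sham (-0.78 ± 0.71, and -1.56 without BDL 2), and Pomc differed by 0.18 ± 0.38. Gh1 and Prl were at 0 in both groups and give no fold.

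**Figure D4:**
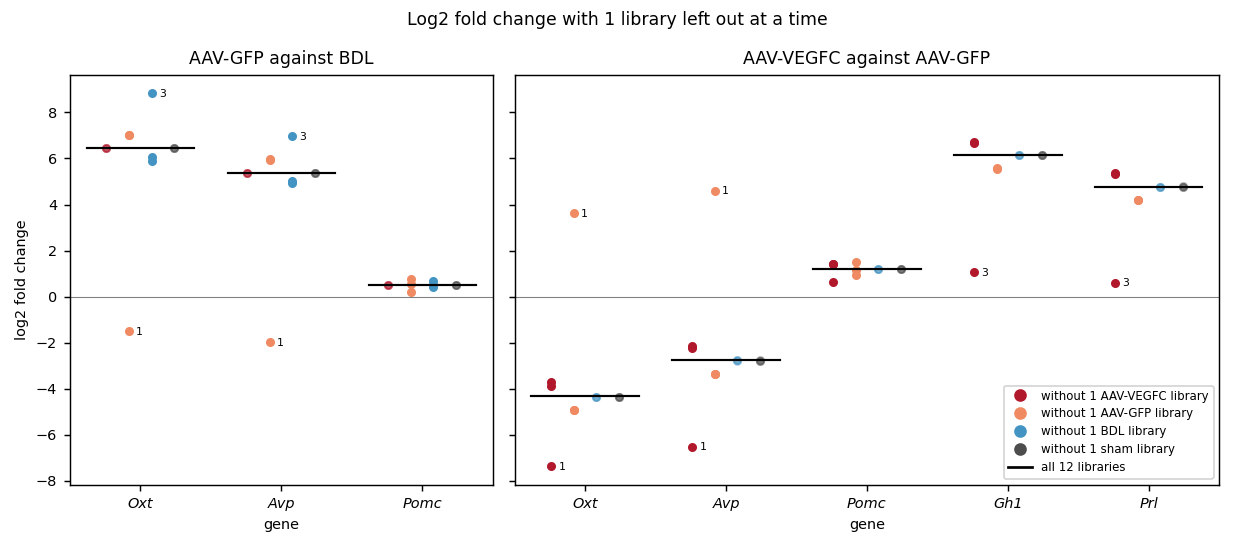
Fitted log2 fold change of hormone genes for AAV-GFP against BDL and for AAV-VEGFC against AAV-GFP, with all 12 libraries (black line) and with 1 library left out (points, coloured by the group of that library, numbered where they differ by over 1.2). Gh1 and Prl have no fold in the first comparison since BDL is at 0. For Oxt the line stands at 6.45 in the first and -4.34 in the second comparison, and the points without AAV-GFP 1 at -1.50 and 3.63.

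Receptors for these hormones are the genes through which the brain could read them. The list of receptors and partners held 19 genes, 18 of them in the files and 12 tested. None was called by edgeR in AAV-VEGFC against AAV-GFP, AAV-GFP against BDL or BDL against sham, against 0, 1 and 0 genes at an unadjusted p under 0.05 (4.37%, 20.7% and 5.9% of all genes) and 0 by DESeq2 in each. Their median log2 difference was -0.29, -0.0089 and -0.20 in these comparisons, beside 0.01 over all genes in each. Ghr, the growth hormone receptor, averaged 9.7 ± 2.47 CPM in AAV-VEGFC and 10.8 ± 0.715 CPM in AAV-GFP (-0.15 ± 0.15). It averaged 10.8 ± 0.715 CPM in AAV-GFP and 14.0 ± 0.453 CPM in BDL (-0.38 ± 0.15, adjusted p = 0.18, edgeR).

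Oxtr, the oxytocin receptor, had 0.772 CPM in AAV-GFP 1 and between 0.0659 and 0.508 CPM in the other libraries. Avpr1a, the vasopressin receptor of brain and liver, lay between 0.417 and 1.15 CPM, and Avpr2, the kidney vasopressin receptor, had 0 reads in all 12 libraries. Mc3r, a melanocortin receptor of the hypothalamus, had reads in just 3 libraries, AAV-GFP 1 (0.292 CPM), sham 2 (0.204 CPM) and AAV-VEGFC 1 (0.0757 CPM). Mc4r, the other melanocortin receptor of the brain, lay between 1.89 and 4.11 CPM, highest in AAV-GFP 1. Prlr, the prolactin receptor, had 0 CPM in AAV-VEGFC 3, where Prl was highest, and was highest in sham 2 (0.958 CPM), the library with the most choroid plexus RNA (Ttr, transthyretin, 245 CPM). Mchr1, the receptor of melanin-concentrating hormone, lay between 11.97 and 17.9 CPM. Hcrtr1, an orexin receptor, lay between 0.879 CPM in AAV-VEGFC 3 and 5.13 CPM in AAV-GFP 1, and Oprm1, the receptor of beta-endorphin, between 1.41 and 4.85 CPM. Hcrtr2, the other orexin receptor, averaged 2.48 ± 0.102 CPM in BDL and 3.71 ± 0.777 CPM in sham (-0.58 ± 0.27, adjusted p = 0.884, edgeR).

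The genes that cut and pack prohormones are shared by all these cells and by most neurons. Of 17 listed, 16 were in the files and all were tested. One was called by edgeR, in AAV-GFP against BDL: Pcsk1n (proSAAS), an inhibitor of the convertase Pcsk1, rose to 17.1, 13.7 and 15.2 CPM in AAV-GFP, against 10.1, 12.4 and 8.82 CPM in BDL (0.55 ± 0.14, adjusted p = 0.0405). This 1 call among 16 genes is near the 6.19% of all genes called in that comparison, and 5 of the 16 had an unadjusted p under 0.05, beside 20.7% of all genes. The Pcsk1n groups did not overlap, as for 18.2% of all genes in that direction. The call was lost without any of sham 1, sham 2, sham 3, BDL 1, BDL 3, AAV-GFP 1, AAV-GFP 2, AAV-GFP 3 and AAV-VEGFC 2, at adjusted p between 0.0512 and 0.148 by edgeR, with log2 differences of 0.45 to 0.63. DESeq2 called 3 of the 16, beside 1485 of the 12850 genes in that comparison. In AAV-VEGFC, Pcsk1n had 15.1, 15.7 and 17.4 CPM and differed from AAV-GFP by 0.07 ± 0.14.

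None of the 16 was called in AAV-VEGFC against AAV-GFP or BDL against sham by edgeR (0 and 2 at an unadjusted p under 0.05, beside 4.37% and 5.9% of all genes) or by DESeq2. Pcsk1, the convertase that cleaves proopiomelanocortin in the pituitary, averaged 44.7 ± 2.68 CPM in BDL and 58.6 ± 3.18 CPM in sham (-0.39 ± 0.14, adjusted p = 0.71, edgeR). Cpe, the carboxypeptidase that trims cleaved peptides, lay between 1876 and 3237 CPM over the 12 libraries, Pcsk2, a second convertase, between 233 and 371 CPM, and Pam, which amidates oxytocin and vasopressin, between 351 and 493 CPM. Vgf, a granule protein, averaged 176 ± 10.9 CPM in BDL and 242 ± 8.45 CPM in sham (-0.46 ± 0.19, adjusted p = 0.795, edgeR). The median log2 difference of the list was -0.0034 in AAV-VEGFC against AAV-GFP, 0.04 in AAV-GFP against BDL and -0.10 in BDL against sham. Genes of the growth hormone and prolactin response, 13 of 14 tested, were not called by edgeR or DESeq2 in any comparison (2, 1 and 2 at an unadjusted p under 0.05 in the order AAV-VEGFC against AAV-GFP, AAV-GFP against BDL, BDL against sham, beside 4.37%, 20.7% and 5.9% of all genes). Igf1, the main growth factor induced by growth hormone in liver, had 2.45, 3.43 and 3.14 CPM in AAV-VEGFC libraries 1 to 3 and 4.09, 4.03 and 4.39 CPM in AAV-GFP libraries, and did not pass (-0.47 ± 0.15, adjusted p = 0.948, edgeR). Cish, a gene induced by cytokine receptors through Stat5, had 5.51 CPM in AAV-VEGFC 3, its highest library, and 5.39 CPM in sham 1.

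**Figure D5:**
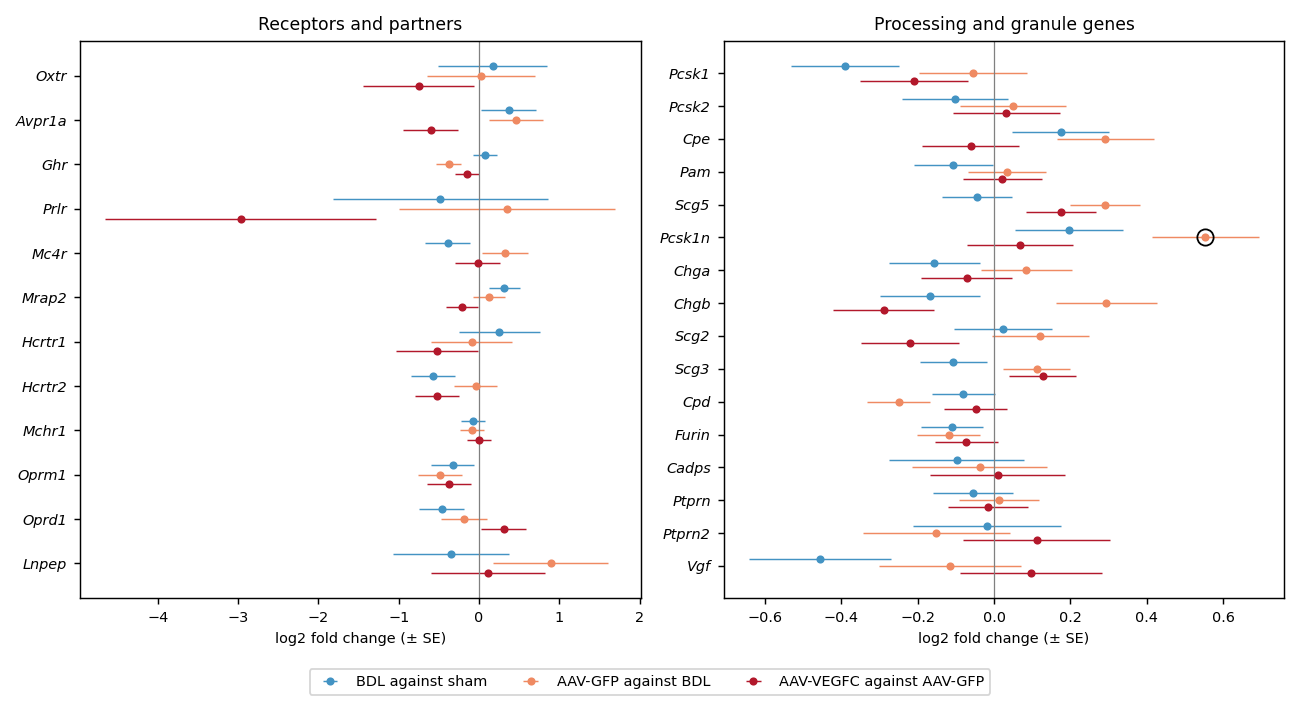
Log2 fold change with SE of the tested receptors and partners (left) and of the processing and granule genes (right) in BDL against sham, AAV-GFP against BDL and AAV-VEGFC against AAV-GFP, with calls ringed. Pcsk1n in AAV-GFP against BDL (0.55) is the single call.

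The genes whose levels followed a member most closely were found by Pearson correlation of log2 CPM over the 12 libraries among 11699 candidates with a mean of at least 0.5 CPM, a description of which libraries are high. For Oxt these were RT1-A2 (0.91, and 0.80 without AAV-GFP 1), Tlr7 and Niacr1, and for Avp they were Gna15 (0.92, and 0.87 without AAV-GFP 1), Car3 and Ifi47. For Gh1 they included Spsb1 (0.93, and 0.65 without AAV-VEGFC 3) and Rpp25. For Prl they were Phactr1 (0.93, and 0.80 without AAV-VEGFC 3), Tbcb and Ramp3. For Pomc they were Armcx6 (0.87, and 0.85 without AAV-VEGFC 2), Sdha and Rtcb, for Pmch Mtif3 (0.87), Rps27a and Prkd1, and for Hcrt Mir9-2 (0.90), Mtrr and Taf1b. The number of candidates is large beside 12 libraries, and no test was made.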

How the data were processed

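Values deposited by the authors are whole-number read counts for each gene symbol, not normalized, in a table of 12 libraries and in single-library files, of which 11 equal the table's columns. Per the labels, Trizol was used for extraction and a TruSeq kit for the libraries. Per the submitters' processing notes, the build was rn6 and the tools were featureCounts, HISAT2, Trimmomatic 0.36 and FastQC. Strand and annotation used in counting are not stated in those sources. The table has 17337 rows and 17335 distinct names, and 0 of its columns were left unused.

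Scaling factors (TMM), the filter on low counts (filterByExpr, leaving 12850 genes with 99.994% of reads) and 1 quasi-likelihood model of all 4 groups were computed with edgeR 4.0.16 in R 4.3.3. A gene was called at a Benjamini-Hochberg adjusted p under 0.05. The tests were checked on simulated data. Figures used matplotlib 3.10.9.

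Members, gene lists and tests were chosen with earlier results of these data known. Named were the members, their direct receptors, the called genes and those of smallest p in each list, defining genes such as Sim1, Cga and Pou1f1, and the 3 genes most like each member, apart from items that are not reported here. Other list genes were named after their values were seen. Alternatives were DESeq2 1.42.0, other scalings and filters, the compared groups alone, a replicate block and each library left out.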

Additional observations from a re-analysis of the deposited data

How the results depend on the processing

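No hormone gene was called under any alternative run, and their levels in their highest libraries moved by less than their counting intervals under 2 other scalings. The number of genes called was unstable. With DESeq2 it was 10 for AAV-VEGFC against AAV-GFP, 1485 for AAV-GFP against BDL and 108 for BDL against sham, with the 2 compared groups alone 0, 2023 and 332, and at an adjusted p under 0.1 it was 1302 for AAV-GFP against BDL and 23 for BDL against sham. Leaving out 1 library gave 0 to 22, 386 to 2945 and 12 to 74 genes. For AAV-GFP against BDL, the calls with 1 library left out were 0 to 2 among hypothalamic markers, 0 to 1 among pituitary markers, receptors and response genes, and 0 to 5 among processing genes, for which DESeq2 called 3, the 2 groups alone 4 and an adjusted p under 0.1 called 2. DESeq2 called 1 hypothalamic marker, and the 2 groups alone 1 receptor. For BDL against sham, the 2 groups alone called 4 processing genes and 1 response gene, beside 332 of all genes. In the main fit the lists held 19 tested hypothalamic markers, 9 pituitary markers, 12 receptors and partners, 13 response genes and 16 processing genes. Nothing is read from these list counts, which stand beside the numbers of all genes called in the same runs.

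The libraries were not treated as pairs by replicate number, since the correlations of same-numbered libraries lay between -0.04 and 0.07. With 3 libraries per group this check cannot exclude a pairing. With the replicate block, 0 processing genes were called for AAV-GFP against BDL and 0 genes for AAV-VEGFC against AAV-GFP. Every library correlated best with its own number for AAV-GFP against BDL only. Without AAV-GFP 1 and AAV-VEGFC 3 together, chosen after seeing the data, 2 hypothalamic markers, 2 pituitary markers and 0 processing genes were called for AAV-GFP against BDL, and 4 genes for AAV-VEGFC against AAV-GFP. The main fit called 795 genes for AAV-GFP against BDL, and nothing is read from these counts of list genes. Pcsk1n turned to -0.0070 for AAV-VEGFC against AAV-GFP without AAV-GFP 2, and lay at up to 0.15 without 1 other library. The cause was not tested. Depth limits Agrp and the libraries with under 10 reads of Oxt, Avp, Gh1 or Prl.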

Other observations

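Some libraries in which hormone genes stood out were set apart by other genes as well. At 1 CPM or more and at least 5-fold above the highest of the other 11 libraries, a rule chosen after the values were seen, AAV-GFP 1 held 8 genes, which besides Oxt and Avp were Cd74 (235 CPM against at most 36.1 CPM elsewhere), RT1-Da, RT1-Db1, Cxcl13, Cxcl10 and Cxcl9. Cd74, RT1-Da and RT1-Db1 belong to antigen presentation by MHC class II, and the others are chemokines. AAV-VEGFC 3 held 5, which besides Gh1 and Prl were Tbcb, Fuom and Ugt1a7c. Sham 2 held 4, namely Mfrp, F5, Tmem72 and Slco1a5. Libraries with no hormone gene past that rule held 1 gene each in AAV-GFP 3 (B9d1, 5.78-fold), BDL 3 (Capns1, 11.6-fold) and sham 3 (Polr2h, 24.7-fold), and sham 2 held no hormone gene either.

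Striatal markers, 9 genes such as Penk and Ppp1r1b, summed to 1665 CPM in AAV-VEGFC 3 and 1377 CPM in AAV-GFP 1, against 301 to 1043 CPM in the other 10 libraries. AAV-VEGFC 3 had the highest level of 6 of the 9, and AAV-GFP 1 that of the other 3. None of the 9 was called in any comparison by edgeR or DESeq2, with 0 at an unadjusted p under 0.05. Over all genes edgeR called 0.00778% for AAV-VEGFC against AAV-GFP, 6.19% for AAV-GFP against BDL and 0.109% for BDL against sham. The shares at an unadjusted p under 0.05 were 4.37%, 20.7% and 5.9%. With 9 genes nothing is read from these counts. The part of the dissected region in the hormone levels was not tested.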
